A study of Mus musculus with 6 samples.

Results

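The genes described here are the RAB and SNARE genes of vesicle traffic. They were chosen by symbol from the deposited table of estimated counts: every gene named Rab and a digit, Vamp, Stxbp, Snap2 or Stx and a digit, leaving out pseudogenes and the Rab3gap and Rab11fip genes. The rule found 88 of 16254 genes, of which 56 encode RAB GTPases, 23 SNARE proteins and 6 syntaxin-binding proteins, while Rab5if, Rab3il1 and Rab3ip share the prefix but are not RAB GTPases. After a filter on low counts, 80 of the 88 were tested. The other 8 (Rab30, Rab42, Rab17, Rab15, Rab3c, Rab3b, Stxbp6 and Stx1a) had at most 55 counts in any library. Stx4 and Stx5 are listed in the table as Stx4a and Stx5a, and Vamp7 was not analysed here.

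Eosinophils, the granulocytes of type 2 allergic inflammation, were grown from bone marrow of C57BL/6 mice 6 to 12 weeks old, first in FLT3 ligand and stem cell factor and then in IL-5. On culture day 12 they were treated for 24 h with extracellular vesicles (EVs) from activated TH2 cells, at 5e+09 EVs/mL, or with the same volume of unconditioned media put through the same isolation, labelled Media treated and called sham here. Both groups carried the same genotype and, up to the treatment, the same cytokine history, with 3 biological replicates each. The paper reports a cytokine on the surface of such EVs, and higher eosinophil survival with these EVs than without treatment. That cytokine is IL-3, so cytokine exposure during treatment and the share of dying cells at harvest may have differed between the groups. The part of either in the differences described below was not tested. The labels do not say whether replicates came from separate mice, so the p-values measure the spread between these cultures, which may be in part technical.

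RAB GTPases are small molecular switches that sit on the membrane of 1 compartment or a few and recruit the motors, tethers and fusion factors that a vesicle needs there. SNARE proteins then pull the membranes together: an R-SNARE (VAMP) on the vesicle pairs with a syntaxin and a SNAP-25 type protein on the target, under the control of syntaxin-binding (Munc18) proteins. In eosinophils and other granulocytes this machinery moves and releases the granules, whose cationic proteins and cytokines are the cell's main stored products.

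Library totals ranged from 23697620 to 37874426 estimated counts. Of 12 eosinophil markers, 8 were higher and 0 lower after EVs, and their summed normalized counts were 942207 to 1186850 in sham and 1344101 to 1501585 in EV cultures. The defining markers Prg2 and Epx were abundant in all 6 libraries. Macrophage markers (9 genes listed), neutrophil markers (9 genes listed) and mast cell and basophil markers (7 genes listed) were also detected and differed between the groups, and their values are given beside the genes that moved with them. T cell markers were sparse, with 2 of 7 passing the filter, of which Cd28 was lower in EV cultures (292, 707 and 679 against 27.0, 47.1 and 53.1 normalized counts) and Cd3d was not called.

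Of the 80 genes tested, 11 were higher and 7 lower in EV- than in sham-treated eosinophils, and 62 did not pass the threshold (edgeR's quasi-likelihood test, Benjamini-Hochberg adjusted p under 0.01 over 13498 genes). The 18 called genes made up 22.5% of those tested, a share close to the background of 23.7% for all genes. That background was not matched for count level. The median of the mean counts was 1490 for the family and 572 for all genes tested, and higher counts make a call easier. Among all genes 12.1% were higher and 11.6% lower, which is also the background for the counts by role below. Most groups by role hold few genes and no set test was run, so their counts are descriptions. The median log2 fold change was 0.04 for the 80 genes and -0.01 for all genes. With a log2 fold change of at least 1 in size as well, 2 genes were higher (Rab44 and Rab24, background 3.1%) and 3 lower (among them Rab7b and Rab3il1, background 6.35%). Without regard to the test, all 3 EV cultures lay above all 3 sham cultures for 23 genes (background 24.8%) and below them for 15 (background 24.7%).

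When libraries were scaled by their totals alone in place of TMM scaling, the split was 6 higher and 14 lower, as the median log2 fold change of all genes then moved from -0.01 to -0.16. All genes shifted in the same way, to 1036 higher and 2342 lower of 13498, against 1632 and 1572 with TMM. Leaving out EV replicate 1, 2 or 3 left 6 higher genes in each case, and leaving out sham replicate 3 or EV replicate 3 left 4 lower genes. Calls among all genes also fell in these settings, to 1199, 1113 and 1071 higher and to 1198 and 1018 lower, in the same order.

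**Figure D1:**
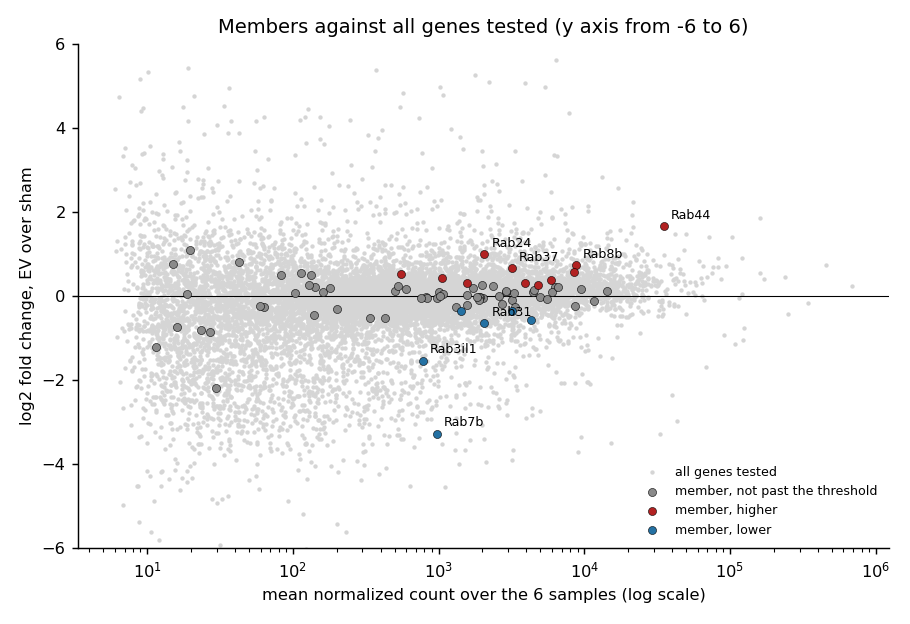
Log2 fold change (EV over sham, y axis) against the mean normalized count of the 6 samples (x axis, log scale) for all 13498 genes tested (grey dots) and 79 of the 80 tested RAB and SNARE genes (outlined points, red higher, blue lower, dark grey not past the threshold); 38 genes lie outside the y axis limits of -6 and 6. Rab44 stands at the far right among the higher genes, and Rab7b is the lowest of the family at -3.27.

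The RAB GTPases of regulated secretion, which bring secretory granules to the plasma membrane, held the most strongly higher gene. Of 7 tested, 3 were higher (Rab44, Rab37 and Rab3d) and 0 lower, beside 12.1% and 11.6% of all genes. Rab44 (chromosome 17, 29114145 to 29148980, plus strand, GRCm38) is a large RAB with extra domains that is expressed in bone marrow cells and mast cells. It had normalized counts of 19539, 15605 and 15379 in the sham cultures and of 53608, 51618 and 55107 in the EV cultures. Every EV culture was above every sham culture by a wide margin. The EV cultures lay close together, while sham replicate 1 lay above the other sham cultures. Its level was 3.17-fold higher (log2 fold change 1.67, SE 0.09, adjusted p = 6.45e-07), and it remained called under all 12 alternative settings, with log2 fold changes from 1.52 to 1.79.

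Rab37, which marks secretory granules of mast cells and other cells, had 2660, 2460 and 2224 normalized counts in sham and 3729, 3806 and 4111 in EV cultures, again with no overlap. The rise was 1.59-fold (log2 0.66, SE 0.08, adjusted p = 0.000112). Rab3d, a granule RAB of exocrine and hematopoietic cells, had 5328, 5053 and 5022 in sham and 6656, 6509 and 6839 in EV cultures. It was 1.30-fold higher (log2 0.38, SE 0.06, adjusted p = 0.000545), a smaller difference than that of Rab44 but several times the spread within either group.

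Rab27a, the RAB that docks granules in cytotoxic and myeloid cells, was among the most abundant of the family but did not pass the threshold. Its normalized counts were 9604, 8796 and 8411 in sham and 10055, 10067 and 9781 in EV cultures, which do not overlap (log2 0.16, SE 0.06, adjusted p = 0.0741; 0.00692 without sham replicate 1). Rab27b, its close relative, was low, with 106 to 211 in sham and 175 to 220 in EV cultures. These ranges overlap (log2 0.18, SE 0.26, adjusted p = 0.636). Rab3a and Rab26 were also low and not called.

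Mast cell and basophil markers moved in the same direction as these secretory RABs: 4 of 6 tested were higher, and the sum over the 7 listed was 4101 to 5233 in sham and 9891 to 11712 in EV cultures. Gata2 (mean 2464 in sham and 5187 in EV cultures) and Cpa3 (1427 and 3522) weigh most in this sum. The mast cell protease gene Tpsb2 had at most 3 counts in every library, and Kit was not called (log2 -0.23). In bulk RNA, fewer cells of a type and less RNA per cell cannot be told apart, and the part of such cells in the Rab44 and Rab37 differences was not tested. Neutrophil markers, from another granulocyte, were split, with 2 of 9 higher and 4 lower, and their sum was 15908 to 18525 in sham and 17491 to 20840 in EV cultures. Ly6g was higher (618, 493 and 566 against 3672, 3418 and 3457; log2 2.65), as was Cxcr2 (log2 1.87), while the granule protein genes Ltf (log2 -1.05) and Camp (log2 -2.02) and the calprotectin genes S100a8 (log2 -1.18) and S100a9 (log2 -0.90) were lower. Their part in the differences of the granule RABs and SNAREs was not tested either.

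**Figure D2:**
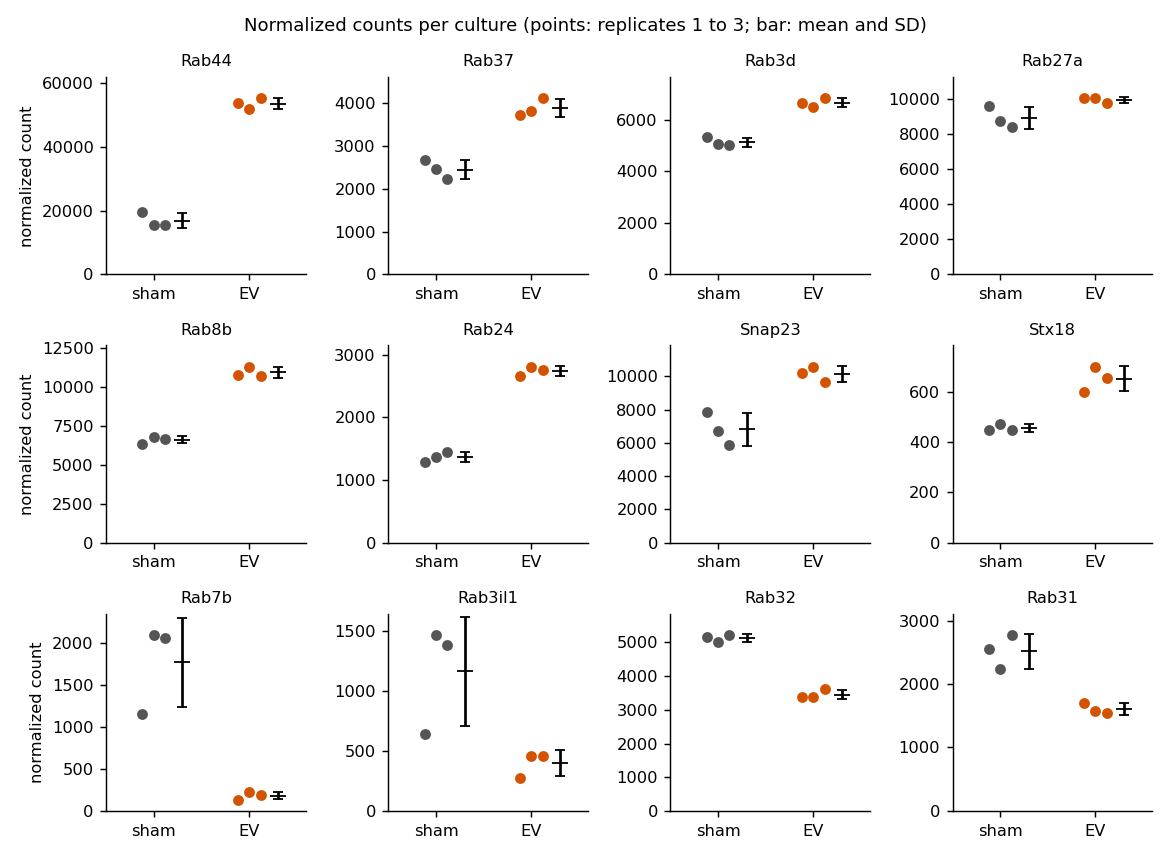
Normalized counts (y axis, from 0) of 12 genes in the 3 sham-treated (grey) and 3 EV-treated (orange) cultures, with the mean and SD beside them. In every panel the groups do not overlap, although for Rab27a the gap is small and the test did not pass its threshold.

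Among the RABs of recycling and delivery to the plasma membrane, 3 of 9 tested were higher (Rab8b, Rab8a and Rab11b) and 0 lower. The background was 12.1% and 11.6%. Rab8b, which with Rab8a directs vesicles from the trans-Golgi and recycling endosomes to the surface, had 6332, 6786 and 6657 normalized counts in sham and 10770, 11290 and 10672 in EV cultures. The groups are far apart and each is tight, with a 1.66-fold rise (log2 0.73, SE 0.06, adjusted p = 6.24e-06). Rab8a had 3605, 3211 and 3757 in sham and 4261, 4412 and 4410 in EV cultures, a 1.24-fold rise (log2 0.31, SE 0.07, adjusted p = 0.0069).

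Rab11b, a recycling endosome RAB that falls outside the rule for named genes and was chosen after its values were seen, had 4399, 4418 and 4407 in sham and 5154, 5312 and 5355 in EV cultures. Its rise was 1.20-fold (log2 0.26, SE 0.05, adjusted p = 0.00429). Rab11a, the more studied recycling RAB, overlapped between the groups at 2934 to 3483 in sham and 3330 to 3530 in EV cultures (log2 0.08, SE 0.07, adjusted p = 0.443). The Rab8a call was lost without sham replicate 2 (adjusted p = 0.0166) and without EV replicate 1, 2 or 3 (0.0176, 0.0312 and 0.0311), and with scaling by library totals (0.0903). The Rab11b call was lost with library totals (0.131) and without any 1 of 5 libraries, all but sham replicate 1 (0.0105 to 0.0241).

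Rab13, a RAB of tight junction and surface traffic, showed a large but imprecise difference at low counts. It had 37.8, 45.3 and 63.2 normalized counts in sham and 10.99, 13.7 and 6.96 in EV cultures, and lay just outside the threshold (log2 -2.19, SE 0.57, adjusted p = 0.013), which it passed with DESeq2 (0.00107), limma (0.00727) and library totals (0.00924).

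The RABs of the early endosome and phagosome were split. Of 10 tested, Rab24 was higher, Rab31 was lower and 8 did not pass. Rab24, an unusual RAB linked to autophagosomes and endosomes, had 1289, 1362 and 1451 normalized counts in sham and 2661, 2811 and 2750 in EV cultures. The groups are clearly separate, with a 2.01-fold rise (log2 1.00, SE 0.07, adjusted p = 3.33e-06). In the GENCODE vM21 annotation of GRCm38, however, 66.4% of the Rab24 exon bases (chromosome 13, 55319743 to 55321946, minus strand) are overlapped by Prelid1 on the opposite strand. Prelid1 was also higher, with 5486, 5256 and 5398 in sham and 7977, 8224 and 8417 in EV cultures (log2 0.61, adjusted p = 1.69e-05). Whether the counting used strand is not given in the sources used here, so reads of these genes may not have been told apart.

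Rab31, which controls traffic between the trans-Golgi and endosomes and acts on phagosomes, had 2545, 2230 and 2778 normalized counts in sham and 1708, 1568 and 1541 in EV cultures. Every EV culture was below every sham culture, and the level was 1.57-fold higher in sham (log2 -0.65, SE 0.09, adjusted p = 0.000299). The 3 RAB5 genes, which set the identity of the early endosome, did not pass the threshold. Rab5c had 5380, 6232 and 5869 in sham and 6521, 6982 and 6888 in EV cultures (log2 0.22, SE 0.07, adjusted p = 0.0276; 0.00589 with DESeq2), while Rab5a (log2 0.20, SE 0.08) and Rab5b (log2 0.09, SE 0.06) had adjusted p values of 0.0699 and 0.284. Rab20, a phagosome RAB named after its values were seen, had 595, 461 and 468 in sham and 376, 313 and 368 in EV cultures (log2 -0.53, SE 0.15, adjusted p = 0.0192; 0.00903 with DESeq2 and 0.00493 with library totals).

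The RABs of late endosomes, lysosomes and lysosome-related organelles held the most strongly lower gene. Of 10 tested, 0 were higher and 2 lower (Rab7b and Rab32). Rab7b (chromosome 1, 131688695 to 131715439, plus strand) takes part in traffic from endosomes to the trans-Golgi and in the turnover of Toll-like receptors in macrophages. It had 1152, 2098 and 2055 normalized counts in sham and 134, 221 and 190 in EV cultures. The lowest sham culture was still above the highest EV culture several times over. The level was 9.68-fold higher in sham (log2 -3.27, SE 0.25, adjusted p = 6.2e-06), and it remained called under all 12 alternative settings. Rab7, the general late endosome RAB, had 8844, 9054 and 10019 in sham and 7668, 7926 and 7975 in EV cultures. Its groups do not overlap, but it missed the threshold (log2 -0.24, SE 0.06, adjusted p = 0.012), and passed it with DESeq2 (0.00117), with limma (0.00892), with library totals (0.000623) and without sham replicate 1 (0.00633).

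Rab32, which builds lysosome-related organelles and acts in defence against bacteria in phagosomes, had 5171, 5005 and 5230 normalized counts in sham and 3374, 3368 and 3623 in EV cultures. Both groups are tight and well apart, with a 1.49-fold higher level in sham (log2 -0.57, SE 0.06, adjusted p = 4.87e-05). Its paralog Rab38, which falls outside the rule for named genes, was low, at 19.4 to 38.7 in sham and 41.1 to 78.9 in EV cultures (log2 0.82, SE 0.48, adjusted p = 0.223). Rab9, a RAB of late endosome to Golgi return that was named after its values were seen, had 392, 369 and 434 in sham and 295, 278 and 263 in EV cultures (log2 -0.52, SE 0.14, adjusted p = 0.0157; 0.0094 with DESeq2 and 0.00428 with library totals).

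Most macrophage markers moved with the most strongly lower genes. Of 9 listed, 7 were lower, Adgre1, which eosinophils also express, was higher, and Mrc1 was not called (log2 0.34, adjusted p = 0.332). Their summed normalized counts were 41224 to 55386 in sham and 39685 to 44167 in EV cultures, a sum in which Adgre1 weighs most. C1qb, a complement gene typical of macrophages, had 3128, 6296 and 5701 in sham and 498, 1065 and 1134 in EV cultures (log2 -2.48, adjusted p = 0.000181). Within both groups, replicate 1 was low for most of these markers and for part of the lower RAB and SNARE genes: the ratio of replicate 1 to the mean of replicates 2 and 3 was 0.522 in sham and 0.452 in EV for C1qb, 0.555 and 0.652 for Rab7b, and 0.447 and 0.596 for Rab3il1. For Mrc1, which was not lower in EV cultures, it was 0.520 and 0.639. For Adgre1 it was 0.992 and 0.969, for Rab31 1.02 and 1.10, and for Rab32 1.01 and 0.965. The part of macrophage-like cells in these differences was not tested.

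**Figure D3:**
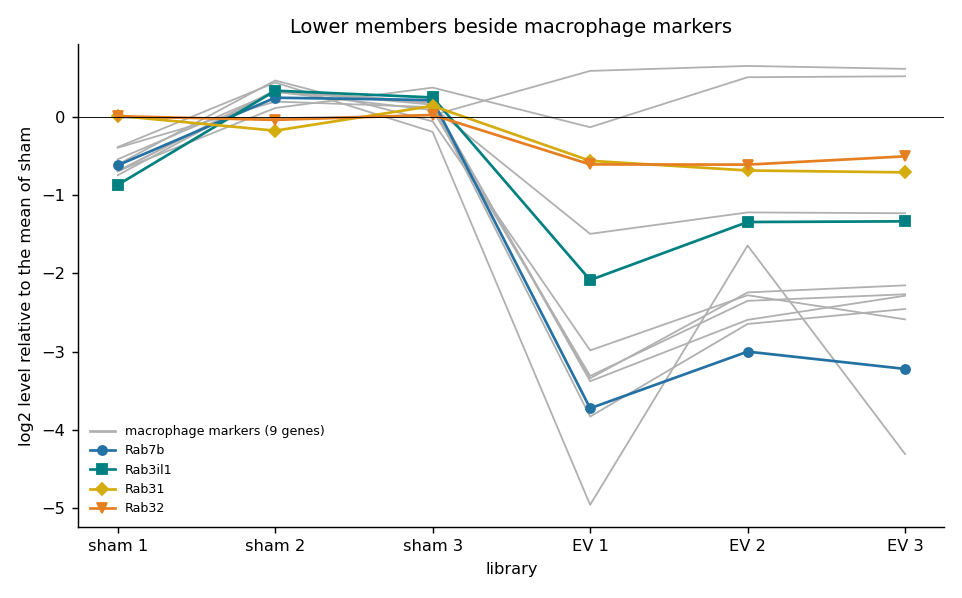
Log2 level of 4 lower genes (coloured) and of 9 macrophage markers (grey) in each library, relative to the mean of the 3 sham-treated cultures; each line joins the values of 1 gene and the order of replicates has no meaning. Rab7b and Rab3il1 dip in sham 1 and EV 1 as most of the markers do, while Rab31 and Rab32 do not.

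Of the 11 RABs tested that serve the endoplasmic reticulum and Golgi, where the general secretory route begins, 0 were higher and Rab43 alone was lower. Rab43, a Golgi RAB, had 3344, 3900 and 3426 normalized counts in sham and 2631, 2765 and 2982 in EV cultures, which do not overlap (log2 -0.35, SE 0.08, adjusted p = 0.00662). Its exons overlap those of the gene model Gm45140 on the same strand over 77.3% of their length, so its count is uncertain. The call was lost without sham replicate 2 (adjusted p = 0.0186) or 3 (0.0148) and without EV replicate 1, 2 or 3 (0.0372, 0.0346 and 0.013). Of the 3 other RABs tested, Rab40c, Rab28 and Rab23, 0 passed.

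The SNARE genes gave 4 higher and 1 lower of 22 tested, or 22.7% called against the background of 23.7%. Both SNAP-25 type genes were higher. Snap23, the ubiquitous partner of syntaxins at the plasma membrane and in granule release of blood cells, had 7834, 6728 and 5881 normalized counts in sham and 10175, 10594 and 9652 in EV cultures. The sham cultures varied more than the EV cultures but stayed below all of them, and the rise was 1.49-fold (log2 0.57, SE 0.09, adjusted p = 0.001). Snap29, which acts in fusion of autophagosomes and endosomes, had 949, 957 and 782 in sham and 1223, 1217 and 1200 in EV cultures, a 1.35-fold rise (log2 0.44, SE 0.10, adjusted p = 0.00523). The Snap29 call was lost without EV replicate 1, 2 or 3 (0.0215, 0.0255 and 0.0234) and with library totals (0.04), while Snap23 stayed called under all 12 alternatives.

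Of 14 syntaxins tested, Stx18 and Stx7 were higher and 0 were lower. Stx18, a syntaxin of the endoplasmic reticulum, had 447, 474 and 448 normalized counts in sham and 601, 701 and 655 in EV cultures (1.43-fold, log2 0.52, SE 0.11, adjusted p = 0.0049). Other genes overlap 21.8% of its exon bases. Stx7, a syntaxin of late endosomes, had 1357, 1378 and 1468 in sham and 1782, 1718 and 1669 in EV cultures (1.23-fold, log2 0.30, SE 0.07, adjusted p = 0.00786). The Stx18 call was lost with library totals (0.0277) and without sham replicate 3 (0.0117) or EV replicate 1 (0.0102), 2 (0.0348) or 3 (0.0272). The Stx7 call was lost with library totals (0.132) and without any 1 of 5 libraries, all but sham replicate 3 (0.014 to 0.0452).

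Syntaxins of the plasma membrane, of granules and of the autophagosome did not pass. Stx3 had 6516, 5689 and 6017 normalized counts in sham and 7428, 6768 and 7085 in EV cultures, without overlap (log2 0.22, SE 0.07, adjusted p = 0.0272; 0.00617 with DESeq2 and 0.00629 without sham replicate 1). Stx4a overlapped at 1792 to 1917 in sham and 1753 to 1929 in EV cultures (log2 -0.02, SE 0.07, adjusted p = 0.831). Stx11, a syntaxin of cytotoxic granule release, was 1120 to 1644 in sham and 1114 to 1266 in EV cultures (log2 -0.27, SE 0.13, adjusted p = 0.143; 0.00537 without sham replicate 2), and Stx17, the autophagosome syntaxin, had a log2 fold change of -0.0021 (SE 0.10, adjusted p = 0.989).

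Of 6 R-SNAREs tested, 1 was lower and 0 higher. Vamp4, which acts between the trans-Golgi and endosomes and in granule maturation, had 1780, 1476 and 1542 normalized counts in sham and 1235, 1262 and 1248 in EV cultures (1.28-fold higher in sham, log2 -0.36, SE 0.09, adjusted p = 0.00826). This call was lost without a low-count filter (0.011) and without any 1 of 5 libraries, all but sham replicate 2 (0.0145 to 0.0419). The vesicle SNAREs of granule exocytosis did not pass. Vamp8, used in granule release by mast cells and platelets, had 3933, 3514 and 3423 in sham and 2799, 3216 and 3074 in EV cultures, which do not overlap (log2 -0.26, SE 0.08, adjusted p = 0.0272; 0.00205 with library totals). Vamp2 (log2 -0.01, SE 0.10, adjusted p = 0.928) and Vamp3 (log2 -0.02, SE 0.07, adjusted p = 0.827) overlapped between the groups.

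Among the syntaxin-binding proteins, which hold and release syntaxins, Stxbp2, Stxbp3 and Stxbp5 did not pass the threshold. Stxbp2 (Munc18-2), the form needed for degranulation of cytotoxic and mast cells, had normalized counts of 12807, 11755 and 11643 in sham and 11348, 10769 and 11441 in EV cultures (log2 -0.11, SE 0.06, adjusted p = 0.18; 0.00414 with library totals). Stxbp5 (tomosyn), an inhibitor of SNARE assembly, was at 12703 to 14178 in sham and 14557 to 15214 in EV cultures (log2 0.13, SE 0.06, adjusted p = 0.111), and Stxbp3 at 462 to 503 and 551 to 593 (log2 0.24, SE 0.11, adjusted p = 0.111).

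Of the 3 genes that share the RAB prefix only, Rab3il1, an exchange factor that activates RAB proteins, was lower. It had 636, 1466 and 1380 normalized counts in sham and 274, 458 and 460 in EV cultures (2.91-fold higher in sham, log2 -1.54, SE 0.30, adjusted p = 0.00274). Sham replicate 1 lay closer to the EV cultures than to the other sham cultures. The call was lost without sham replicate 2 (0.0129) or 3 (0.0165) and without EV replicate 3 (0.0103).

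**Figure D4:**
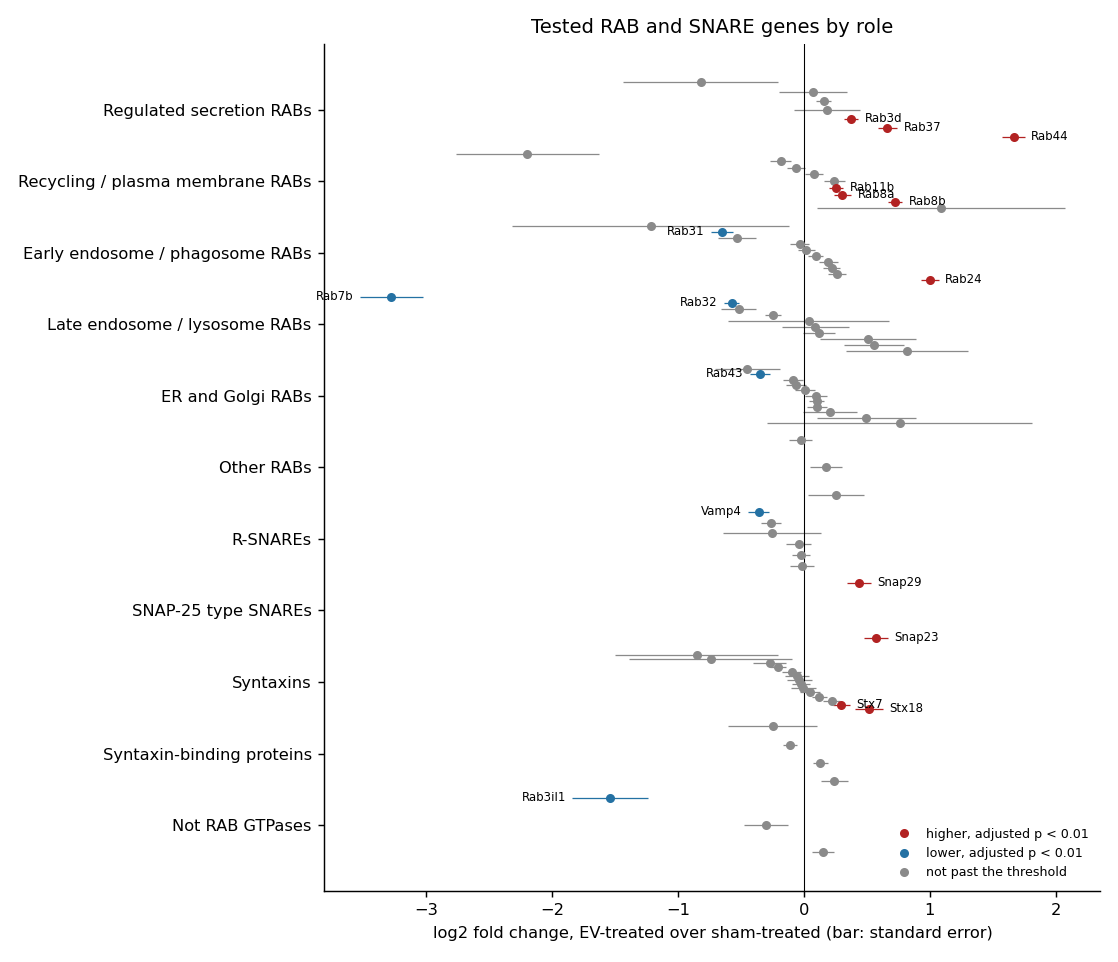
Log2 fold change (EV over sham, x axis) with its standard error for 79 of the 80 tested genes, set out by the role of the protein; red points were higher, blue points lower and grey points did not pass an adjusted p of 0.01. The red points of the RABs are found in the rows of secretion, recycling and early endosomes, and the most negative called points are Rab7b and Rab3il1.

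Pairs of related genes were also compared within each library, where the ratio of their counts does not depend on how libraries are scaled. Of 20 pairs with both genes tested, the ratio did not overlap between the groups for 9. No such share was computed for other pairs of genes; among all single genes tested, 24.8% lay above and 24.7% below without overlap, so the count of pairs is given as a description. For Rab8a over Rab8b, the log2 ratio was -0.81, -1.08 and -0.83 in sham and -1.34, -1.36 and -1.27 in EV cultures, so the balance lay further toward Rab8b in every EV culture (difference -0.42). For Rab22a over Rab31, endosomal RABs of the same subfamily, it was -0.73, -0.55 and -0.82 in sham and -0.19, 0.06 and 0.03 in EV cultures (difference 0.66). A two-sided exact permutation test of 3 against 3 cultures cannot go below p = 0.1, which all 9 pairs reached, and 0.222 after adjustment over the 20 pairs.

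For Stx7 over Stx12, endosomal syntaxins, the log2 ratio of counts, not divided by length, was -0.31, -0.33 and -0.17 in sham and 0.31, 0.21 and 0.17 in EV cultures, a difference of 0.50. Per kilobase of exon, the mean level of Stx12 was above that of Stx7 in both groups (576 against 372 in sham and 499 against 458 in EV cultures). For Stxbp2 over Stxbp3 the log2 ratio was 4.67, 4.62 and 4.65 in sham and 4.33, 4.18 and 4.38 in EV cultures. The RAB5 pairs moved little: Rab5a over Rab5b differed by 0.11 and Rab5b over Rab5c by -0.13.

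**Figure D5:**
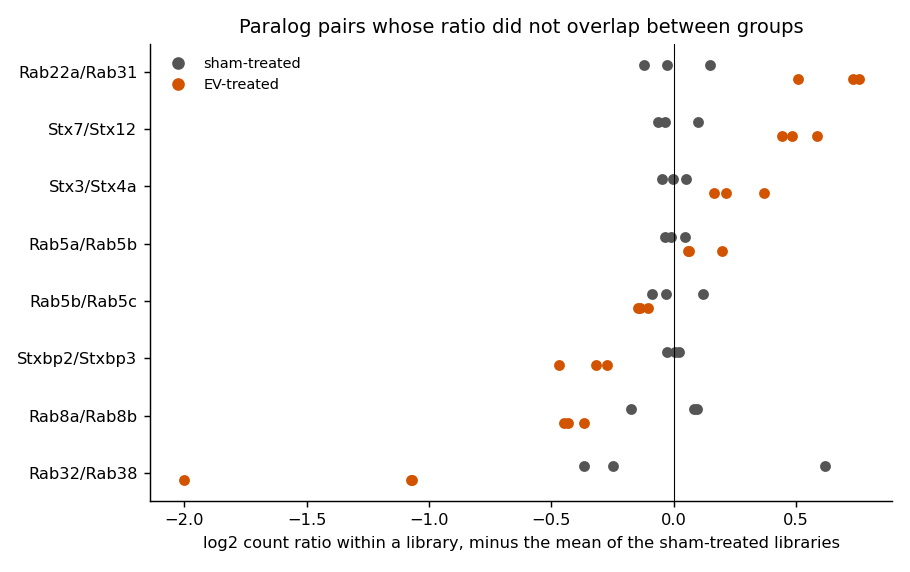
Log2 ratio of the counts of 2 related genes in each library, minus the mean of the 3 sham-treated libraries (x axis), for 8 of the 9 pairs whose groups did not overlap (grey sham, orange EV). The ratios of Rab22a to Rab31, of Stx7 to Stx12 and of Stx3 to Stx4a lie to the right in EV cultures, and those of Stxbp2 to Stxbp3 and Rab8a to Rab8b to the left. The largest shift shown, of Rab32 to Rab38, is also to the left (difference -1.38) and rests on the low counts of Rab38.

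Per kilobase of merged exon, which allows levels of different genes to be set side by side, Rab44 was the third most abundant of the family in sham cultures (3581 ± 497 normalized counts per kb, SD, n = 3) and the first in EV cultures (11364 ± 372). In sham cultures it did not stand apart from Stxbp2 (4150 ± 221), Rab5if (4116 ± 514) or Rab7 (3565 ± 240). In EV cultures the next genes were Rab5if at 4586 ± 196, Stxbp2 at 3847 ± 125 and Snap23 at 3679 ± 171. Rab24 moved from rank 21 to rank 8 (1171 ± 69.2 to 2347 ± 64.5) and Rab8b from 15 to 9 (1393 ± 49.4 to 2305 ± 70.2), while Rab32 moved from 8 to 16 (2390 ± 54.2 to 1608 ± 67.9).

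All 88 genes together took 0.692%, 0.671% and 0.67% of the counts in sham and 0.757%, 0.761% and 0.754% in EV libraries. Rab44 alone made up 9.56%, 8.01% and 7.82% of that amount in sham and 22.0%, 21.0% and 22.2% in EV libraries. Without Rab44 the other genes took 0.626%, 0.617% and 0.617% of the counts in sham and 0.591%, 0.601% and 0.587% in EV libraries, so the higher total of the family in EV cultures rested on this gene.

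Genes that regulate RABs and SNAREs (activators, GTPase-activating proteins, effectors, tethers and SNARE partners) were described from a list of their own. Of 117 tested, 17 were higher and 19 lower, or 30.8% against the background of 23.7%, with a median log2 fold change of -0.05 against -0.01 for all genes. Their counts were also higher (median of the mean counts 1452 against 572), so this background is not matched for count level either. With a log2 fold change of at least 1 in size as well, 0 of the 117 were higher (background 3.1%) and 6 lower (background 6.35%). The largest rises among the called genes were in Tbc1d2, a GTPase-activating protein for Rab7 (429, 581 and 502 in sham against 975, 945 and 1028 in EV cultures; log2 0.97, SE 0.12, adjusted p = 0.000159), Dennd4a, an exchange factor (log2 0.86), Sytl1, a RAB27 effector of the synaptotagmin-like family (3005, 2667 and 2736 against 4898, 5022 and 5236; log2 0.85, SE 0.07, adjusted p = 7.64e-06), and Vps45, a syntaxin-binding protein of endosomes (log2 0.74).

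The most negative among the called genes were Tbc1d9 (705, 1054 and 1149 in sham against 96.9, 179 and 162 in EV cultures; log2 -2.72, SE 0.25, adjusted p = 1.82e-05), Rin2, a RAB5 exchange factor (659, 936 and 880 against 168, 184 and 149; log2 -2.30, SE 0.17, adjusted p = 4.03e-06), Tbc1d16 (log2 -1.46) and Rilpl1 (log2 -1.19). With library totals in place of TMM the list gave 8 higher and 29 lower. Leaving out EV replicate 2 or 3 gave 11 and 9 higher, and leaving out EV replicate 3 gave 12 lower. Among all genes, library totals gave 1036 higher and 2342 lower. Leaving out EV replicate 2 or 3 gave 1113 and 1071 higher among all genes, and leaving out EV replicate 3 gave 1018 lower.

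Promoter sequence was searched for words bound by transcription factors of these cells, in RefSeq windows from 250 bases before to 50 after a start site (GRCm38.p6, the mouse build that the labels name as mm10). A window was found for 73 of the 88 genes and 14 of the 18 called, with Rab37, Rab44 and Rab7b among the others. The windows of Rab24 and Rab8b, from the strongly higher genes, and of Rab32, from the lower ones, are shown to let the reader compare them, from 5′ to 3′ on the gene's strand, with matched words in capitals. They lie at chr13:55321931-55322230 (minus), chr9:66919656-66919955 (minus) and chr10:10558158-10558457 (minus).
Rab24: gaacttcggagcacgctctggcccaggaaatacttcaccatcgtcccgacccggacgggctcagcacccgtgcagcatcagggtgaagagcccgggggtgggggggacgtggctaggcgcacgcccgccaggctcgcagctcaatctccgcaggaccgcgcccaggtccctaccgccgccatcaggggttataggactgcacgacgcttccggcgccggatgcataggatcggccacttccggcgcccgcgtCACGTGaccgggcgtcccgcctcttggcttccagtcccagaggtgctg
Rab8b: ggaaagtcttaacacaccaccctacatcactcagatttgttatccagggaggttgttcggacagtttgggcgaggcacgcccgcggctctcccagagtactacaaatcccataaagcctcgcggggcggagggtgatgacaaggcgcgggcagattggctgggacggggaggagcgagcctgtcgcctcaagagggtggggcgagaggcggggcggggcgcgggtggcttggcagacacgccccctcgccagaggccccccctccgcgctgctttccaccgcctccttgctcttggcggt
Rab32: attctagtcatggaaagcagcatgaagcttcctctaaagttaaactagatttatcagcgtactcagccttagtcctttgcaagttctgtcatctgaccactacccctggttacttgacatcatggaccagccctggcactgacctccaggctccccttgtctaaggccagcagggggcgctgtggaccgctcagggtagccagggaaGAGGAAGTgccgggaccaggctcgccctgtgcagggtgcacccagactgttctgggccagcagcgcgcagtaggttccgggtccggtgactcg

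The capitals are the E-box CACGTG in Rab24 and the ETS word GAGGAAGT, of the kind that PU.1 binds, in Rab32, while Rab8b held none of the 4 words searched on either strand. The STAT word TTCNNNGAA was in 7.45% of 94 windows of the family and 8.3% of all 32851 windows, and in 0 of 10 windows of higher genes and 0 of 13 windows of lower genes. CACGTG was in 11.7% of the family's windows and 7.15% of all windows, and in those of Rab24, Rab3il1 and Vamp4 among called genes. GAGGAAGT was in 2.13% against 3.2%, with Rab32 as the called gene, and the GATA word AGATAA in 3.19% against 11.2%, with Rab43 as the called gene. A match says only that these letters are present, and no match only that they are not in this window.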

How the data were processed

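RNA was harvested 24 h after treatment from 3 sham-treated and 3 EV-treated eosinophil cultures and sequenced after poly(A) selection. Per the labels and methods, the authors used FastQC, cutadapt, Salmon and DESeq2, with mm10 among the builds in the submitters' processing notes. Tool versions, annotation and strandedness are not given in the sources used here. Estimated counts, not always whole, were deposited for 16254 genes together with normalized counts, a signal equal to the rounded count plus 1 over a size factor. A deposited table of the authors' own comparison (fold changes, p-values) was not used.

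Estimated counts were rounded and fitted for all genes with edgeR 4.0.16 in R 4.3.3 (TMM, filterByExpr, quasi-likelihood test, Benjamini-Hochberg). The thresholds were an adjusted p of 0.01 and, where stated, a log2 fold change of 1 in size. Normalized counts are rounded counts divided by each library's TMM-adjusted total, after setting the 6 totals to a geometric mean of 1. Standard errors are the log2 fold change over the square root of F. Ratios of related genes added 0.5 to each count. The fit was checked on simulated counts, where 177 of 200 changed genes were called and 0 had the wrong sign. The simulated log2 changes were 1 or 2 in size, of which 81 and 96 of 100 were called. The check therefore does not cover the smaller changes of most genes called here. In the same check 8 unchanged genes were called, a larger share of the calls than the threshold of 0.01. The alternatives were DESeq2 1.42.0, limma 3.58.1 on the deposited normalized counts (log2, pseudocount 1), RLE or library-total scaling, no low-count filter, a block for replicate number, and leaving out each library. Exon lengths and overlaps came from GENCODE vM21.

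Genes were named by rule: every called gene with a log2 fold change of at least 1 in size, the 8 highest and 8 lowest called, the 5 most abundant, and a preset list of granule, phagosome and endosome genes. Of the regulators, the 4 highest and 4 lowest called were named. Rab11b, Rab13, Rab20, Rab9, Rab38 and Stx12, and genes named in passing without a test value, fall outside it and were chosen after their values were seen. The values of 1 gene under this rule are not reported here, though the counts of genes include it. The members and lists were chosen with earlier results of these data known. Averaged over all genes, the spread between replicate cultures exceeded counting error. Some well-counted genes varied less than counting error alone gives. Examples are Rab11b in sham (SD 9.67, mean 4408) and Snap29 in EV cultures (SD 11.7, mean 1213), so their close agreement need not hold in further cultures. In genes with low counts, counting error is a larger part of the spread.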

Additional observations from a re-analysis of the deposited data

How the results depend on the processing

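Of the 18 called genes, 10 passed the threshold under all 12 alternatives, 8 lost it under at least 1, and 0 changed direction. The alternatives shared 18 of the 18 calls (RLE scaling, DESeq2 and limma), 17 (no low-count filter), 13 (library totals) and 10 to 16 (leaving out 1 library). Library totals gave 6 higher and 14 lower genes, 1 higher with a log2 fold change of at least 1 in size, and 8 higher and 29 lower regulators; DESeq2 gave 11 lower genes. Leaving out 1 library gave 6 to 14 higher and 4 to 7 lower genes, 1 to 2 higher and 2 to 3 lower at that size, and 9 to 21 higher and 12 to 21 lower regulators. Among all genes tested, library totals gave 1036 higher and 2342 lower, and DESeq2 gave 2000 lower. For all genes, leaving out 1 library gave 1071 to 1833 higher and 1018 to 1698 lower.

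Genes not called that changed sign had log2 fold changes near 0. With library totals Stxbp5 was at -0.0167, Rab5b at -0.0557 and Rab11a at -0.0668. Without a filter Vamp2 was at 0.0015 and Stx17 at 0.0138, and Stx17 was at 0.0015 with both RLE scaling and DESeq2. Leaving out 1 library gave ranges of log2 fold changes that crossed 0 for Rab27b (-0.0541 to 0.36), Vamp2 (-0.0853 to 0.12), Vamp3 (-0.0749 to 0.0275), Stx4a (-0.0600 to 0.0110) and Stx17 (-0.087 to 0.0592), and of log2 ratio differences for Rab2a over Rab2b (-0.21 to 0.0079), Rab4a over Rab4b (-2.10 to 0.72), Rab5a over Rab5c (-0.0882 to 0.0293), Rab27a over Rab27b (-0.28 to 0.19) and Vamp2 over Vamp3 (-0.0537 to 0.14). The cause was not tested.

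Replicates that share a number across the groups had correlated deviations of 0.117, 0.0846 and 0.0371 for numbers 1 to 3. EV replicates 1 and 2 each correlated best with the sham replicate of their own number, while EV replicate 3 correlated best with sham replicate 2 (0.0487). Whether the numbers pair the cultures is not settled by these values, and the main test did not use them. With the replicate number as a block, 10 genes were higher and 8 lower, 17 of the 18 calls were shared, Stx7 was lost (adjusted p = 0.0133), Rab7 was called (0.00882), and Stx17 had a log2 fold change of 0.0023. The block lowered the adjusted p of Rab3il1 from 0.00274 to 3.65e-08, of Rab7b from 6.2e-06 to 1.23e-12 and of Rab44 from 6.45e-07 to 9.11e-12. Among all genes it gave 1794 higher and 1781 lower, against 1632 and 1572 in the main test. Leaving the 3 genes that are not RAB GTPases out of the rule gave 11 higher and 6 lower. Genes with low counts were measured less precisely, with standard errors of 0.57 for Rab13 and 0.48 for Rab38 on the log2 scale.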
